A study of Mus musculus with 16 samples.

Results

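Mechanosensitive ion channels are membrane proteins that open when the membrane around them is stretched, pressed or swollen. The genes described here are 8 channels of this kind: Piezo1, Piezo2, Trpv2, Trpv4, Trpc1, Trpc6, Tmem63b and Kcnk2. They were taken by name from the deposited table, where each matched 1 of 49315 genes. Piezo2 was chosen by its interaction estimate, the difference in injury response between genotypes in these same libraries, and the other 7 were set beside it as relatives by function. The values of Piezo2 are therefore given as a description with no test, and tests are given for the relatives.

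The intervertebral disc is a cartilage-like cushion between vertebrae that is loaded with every movement, and its cells live in a dense matrix with a high and changing osmotic pressure. PIEZO channels are large trimeric pores that pass calcium and other cations when the membrane is pulled flat. PIEZO1 is found in many tissues that bear load or flow, and PIEZO2 is best known as the touch and position sensor of sensory nerve endings. TRPV4 is a calcium-permeable channel that cartilage cells use to sense swelling and osmotic change, while TREK-1, the product of Kcnk2, lets potassium out and so quiets the cell when it is stretched.

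Bulk RNA sequencing had been done on tail discs of 16 mice, with 4 discs pooled per mouse. The mice were wild type or carried the Adam8EQ mutation, and their discs were left intact or had been injured. The groups were intact wild type (WT_INTACT, 3 mice), injured wild type (WT_INJURED, 4 mice), intact mutant (MUT_INTACT, 4 mice) and injured mutant (MUT_INJURED, 5 mice). Adam8 encodes a membrane-bound metalloprotease. The labels say no more of the EQ allele, and the series title names DBA as the strain compared with the mutants. The age and sex of the mice, the way the discs were injured and the time since injury are not given in the sources used here. Nothing states whether the mutants and the wild type were littermates, so strain and mutation cannot be told apart.

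Levels are TPM, read counts divided by gene length and scaled to 1000000 per library, so that they can be compared between genes. A change is the mean log2(TPM + 1) in the second group minus the first, which makes the change of a low gene look smaller than it was. The adjusted p-values are those of limma over all 24188 tested genes, with a threshold of 0.05, and are two-sided. The depth implied by the TPM values was 10220111 to 24881478 reads per library. The disc markers Acan and Col2a1, genes of cartilage matrix, were high in all libraries, and T, the notochord transcription factor of the nucleus pulposus, lay at 3007.6 ± 374 TPM in intact wild-type discs (SD, n = 3). Library names begin with D in all wild-type mice, with A8 in mutants 1 and 2 of each treatment, and with M in the other mutants. What these letters stand for is not given, and in the wild type they cannot be told apart from genotype. Injured wild-type mice differed in macrophage markers, with a sum over 7 genes of 223 TPM in mouse 1, 376 TPM in mouse 2, 3734 TPM in mouse 3 and 2380 TPM in mouse 4, against 141 to 169 TPM in intact wild-type discs.

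In intact wild-type discs Trpv4 was the most abundant of the 8 channels, at 238 ± 41.9 TPM (SD, n = 3). Piezo1 followed at 98.0 ± 24.5 TPM and Tmem63b, an osmosensitive cation channel of the OSCA family, at 74.1 ± 14.4 TPM. Piezo2 at 23.8 ± 3.25 TPM, Trpc1 at 19.2 ± 3.04 TPM and Kcnk2 at 19.0 ± 1.72 TPM formed a middle tier. Trpv2 lay at 1.17 ± 0.149 TPM, and Trpc6 was listed at 0 in 2 of the 3 libraries. The top of this order held mouse by mouse. In 16 of 16 libraries Trpv4 lay above Piezo1, Piezo1 above Tmem63b and Tmem63b above Piezo2. Lower down it was less fixed, with Piezo2 above Trpc1 in 13 libraries and Trpc1 above Kcnk2 in 14. In intact wild-type discs the ranges of Piezo1 and Tmem63b overlapped, as did those of Piezo2, Trpc1 and Kcnk2. Trpv4 alone took 47.4% to 65.2% of the summed TPM of the 8 genes in a library.

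**Figure D1:**
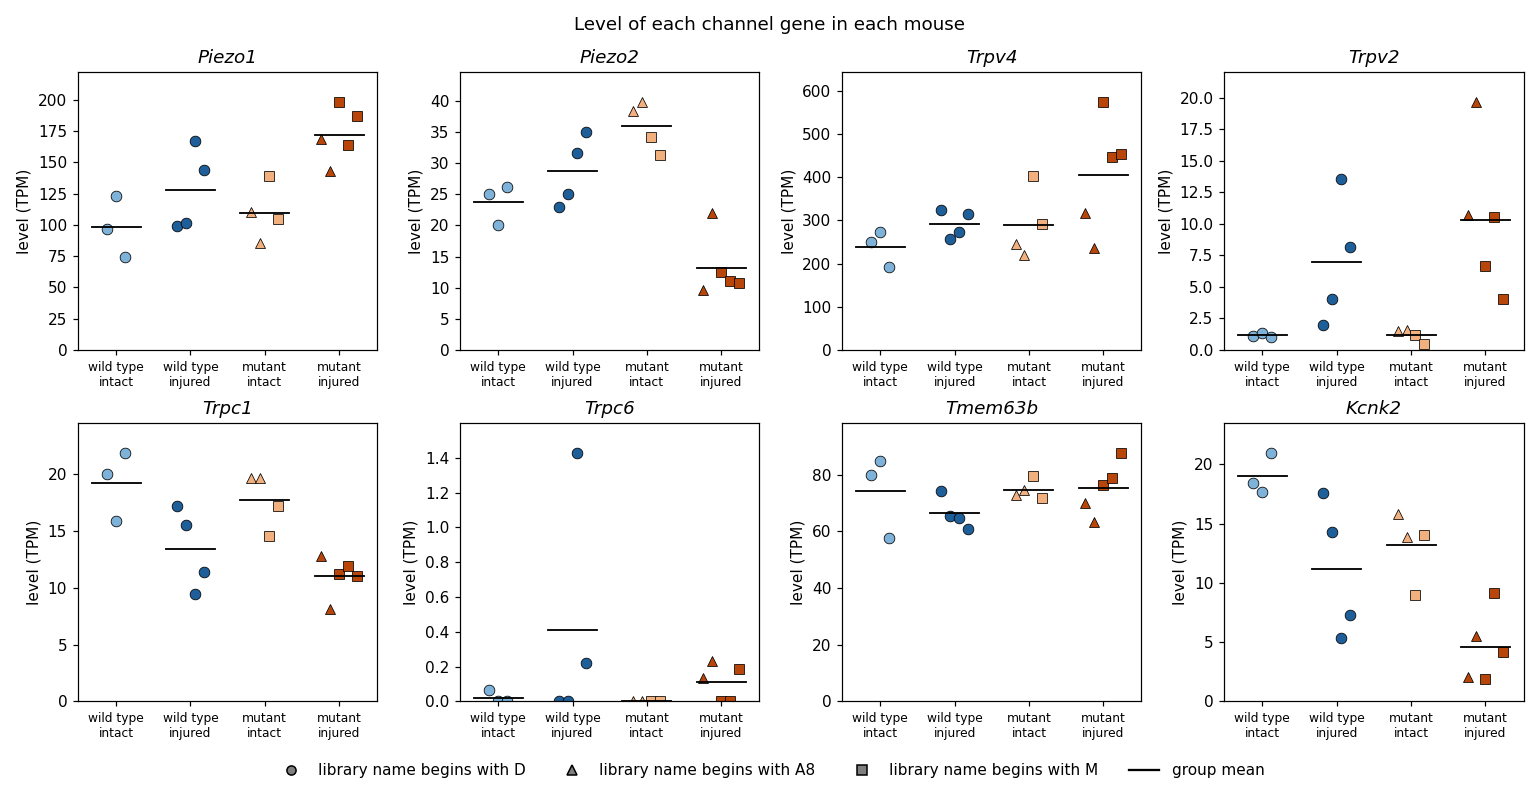
Level in TPM (vertical axis, from 0) of each of the 8 channel genes in each of the 16 mice, by group (horizontal axis). Points are mice, their shape gives the start of the library name, and lines are group means. Piezo2 lies between 9.67 and 22 TPM in injured mutants and between 31.3 and 39.9 TPM in intact mutants, while its wild-type groups overlap.

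Piezo2 was lower in injured than in intact mutants, while its wild-type groups overlapped. In intact wild-type discs it lay at 25.1, 20.1 and 26.2 TPM in mice 1 to 3. In injured wild-type discs it lay at 23.0, 25.0, 31.6 and 35.0 TPM in mice 1 to 4. These groups overlapped, and the 2 highest values came from mice 3 and 4, the mice with high macrophage markers. In intact mutants it lay at 38.3, 39.9, 34.2 and 31.3 TPM, above all 3 intact wild-type mice. In injured mutants it lay at 9.67, 22, 12.6, 11 and 10.7 TPM, below every other group except for mouse 2, which fell within the range of intact wild-type discs.

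On the log2 scale the difference between injured and intact discs was 0.25 ± 0.24 in the wild type (SE) and -1.43 ± 0.21 in mutants (SE). The latter corresponds to a level 2.70-fold lower in injured mutants on the TPM + 1 scale. The mutant change minus the wild-type change was -1.68 ± 0.31 (SE). Mutants minus wild type gave 0.58 ± 0.24 for intact discs and -1.10 ± 0.21 for injured discs (SE). Piezo2 was thus higher in mutants among intact discs and lower in mutants among injured ones. The intact genotypes did not overlap, as held for 6.18% of all tested genes (2.77% higher and 3.41% lower in mutants), nor did the injured ones, as held for 4.77% (3.86% lower). No p-value is given for these values because they chose the gene. Within the mutants the change was -1.36 among the libraries named A8 and -1.44 among those named M, where the A8 value averages injured mice at 9.67 and 22 TPM. Each library held 587 to 2176 implied reads of Piezo2. Over 25 alternative settings, the mutant change minus the wild-type change ranged from -1.87 to -1.57. These settings reuse the values that chose Piezo2, so the range is a description and not a check of it.

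In these bulk samples fewer cells of a type and less RNA per cell cannot be told apart, so the levels of marker genes are given beside Piezo2. The summed level of 7 markers of annulus and tendon fibroblasts was 3388 to 4456 TPM in intact and 4411 to 8487 TPM in injured wild-type discs. It was 3822 to 4549 TPM in intact mutants and 1822 to 3445 TPM in injured mutants. Like Piezo2, this sum was lowest in injured mutants, and the intact and injured mutants did not overlap. Other marker sums shared this lack of overlap. The sum of 6 osteoblast markers was 6475 to 10901 TPM in intact and 2844 to 5845 TPM in injured mutants. Nearly all of it was Spp1, with means of 8458 TPM in intact and 4094 TPM in injured mutants. Of its 5 tested genes, 1 fell with injury in mutants, Spp1, and 1 rose, Runx2, by 0.83 ± 0.22 (SE, with limma adjusted p = 0.01017). The sum of 8 notochordal markers was 2588 to 4292 TPM in intact and 50.6 to 2494 TPM in injured mutants. The epidermal sum given below did not overlap in mutants either. Of the 7 annulus and tendon markers, 4 fell with injury in mutants and 1 rose. Over all tested genes 17.7% fell and 13.1% rose. Tenomodulin (Tnmd) fell by 2.03 ± 0.54 (SE, with limma adjusted p = 0.007797) and fibromodulin (Fmod) fell by 1.70 ± 0.43 (SE, with limma adjusted p = 0.006462), both of them genes of tendon and outer annulus. The riser was Thbs4 at 1.95 ± 0.58 (SE, with limma adjusted p = 0.01278). In mean level the gene that fell most was Fmod, from 2577 TPM in intact to 867 TPM in injured mutants. The mean of Col1a1, which was not called, went from 946 to 1371 TPM. The fall of the annulus and tendon sum was thus largely that of Fmod. The part of any of these cell types in the level of Piezo2 was not tested.

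Markers of nerve and skin, the best known sites of PIEZO2, were unevenly present. The neurofilament gene Nefl was listed at 0 in 3 of the 4 groups and its mean was 0.045 TPM in injured mutants. Nefh, the heavy neurofilament, had group means of 0.544 to 0.922 TPM. Atoh1, the factor that defines touch-sensing Merkel cells, was listed at 0 in all 16 libraries, and Krt5 of basal epidermis had a mean of 0.043 TPM in injured mutants and was listed at 0 elsewhere. Other genes of the epidermal list were detected, with group means of 12.8 to 20.2 TPM for the keratin gene Krt10 and 46.5 to 175 TPM for the desmosome gene Dsp. The summed level of 9 Schwann cell and nerve markers ranged from 278 to 756 TPM in injured mutants and from 415 to 562 TPM in intact mutants, and its most abundant gene was Pmp22, with group means of 262 to 358 TPM. The summed level of 8 epidermal markers ranged from 20.6 to 125 TPM in injured mutants and from 145 to 240.2 TPM in intact mutants. It also was lower after injury, and 3 of its 5 tested genes fell, beside 17.7% of all tested genes. On average most of this sum was Dsp, with means of 173 TPM in intact and 46.5 TPM in injured mutants. The fall of the sum was thus largely that of this gene. In the wild type this epidermal sum was 184.9 to 222 TPM in intact and 53.6 to 144 TPM in injured discs, where Piezo2 was not lower. Its part in the level of Piezo2 was not tested.

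**Figure D2:**
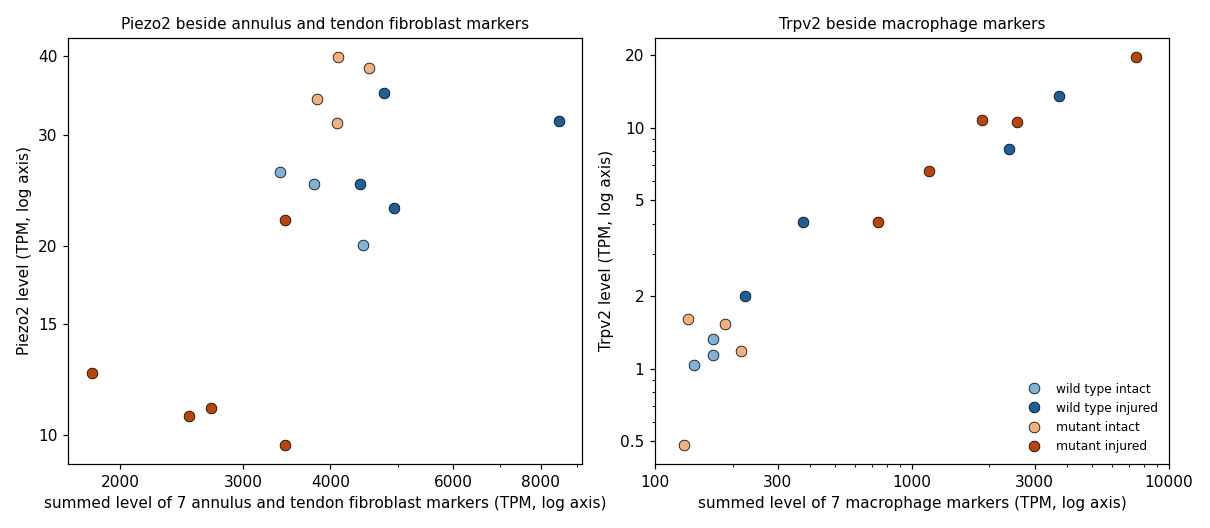
Left, Piezo2 level against the summed level of 7 annulus and tendon fibroblast markers. Right, Trpv2 level against the summed level of 7 macrophage markers. Both axes are TPM on log axes and each point is 1 of the 16 mice. Injured mutants lie at the lower left for Piezo2, with 1 mouse at 22 TPM, and the mouse with the highest macrophage sum has the highest Trpv2, 19.7 TPM. The lower annulus and tendon sum in injured mutants was largely the fall of 1 gene, Fmod.

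Piezo1 (ENSMUSG00000014444, a protein-coding gene at chr8:122481698-122551329 on the minus strand in GRCm38) was higher after injury in mutants. In intact wild-type discs it lay at 96.8, 123 and 74.2 TPM, and in injured ones at 99.2, 102, 167 and 144 TPM in mice 1 to 4. The wild-type groups overlapped, with mice 1 and 2 inside the intact range and mice 3 and 4 above it. In mutants it lay at 110.3, 85.5, 139 and 105 TPM in intact discs and at 168, 143, 199, 164 and 187 TPM in injured discs, with no overlap, as was true of 27.2% of all tested genes (12% higher). Piezo1 rose with injury in mutants by 0.66 ± 0.20 (SE, with limma adjusted p = 0.01621). In the wild type it did not pass, at 0.37 ± 0.23 (SE, with limma adjusted p = 0.3667). The mutant call was lost without intact mutant mouse 2 (0.54 ± 0.21, adjusted p by limma 0.06073). Piezo1 overlaps Ctu2, at 4.8 to 13.5 TPM, and Gm26497, at 8.69 to 67.4 TPM, whose change with injury in mutants was 1.53 ± 0.43 (SE). The use of strand in counting is not given in the sources used here.

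The ratio of Piezo1 to Piezo2 within a library was highest in injured mutants. Piezo1 exceeded Piezo2 by 4.27 ± 1.69 fold in intact wild-type discs (SD, n = 3), 4.44 ± 0.566 fold in injured wild-type discs (SD, n = 4) and 3.11 ± 0.811 fold in intact mutants (SD, n = 4). In injured mutants the ratio was 14.4 ± 4.56 (SD, n = 5). It was 6.50 in injured mutant mouse 2 and 14.9 to 17.5 in the other 4 mice, against at most 6.13 in the 11 mice of the other groups. These ratios contain the values that chose Piezo2 and are given without a test.

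Among the 6 relatives that could be tested, 4 passed in the comparison of injured with intact mutants, against 30.8% of all tested genes. Piezo1 and Trpv2 were higher (13.1% of all tested genes rose) and Trpc1 and Kcnk2 were lower (17.7% fell). With so few genes and a background of this size, the count says little about channels as a class. The 42.6% of all calls that were rises became 52.1% with median-of-ratios scaling and 35.4% with voom, while the 4 channel calls held their direction under all alternatives run. The median change over the 6 was 0.23, beside -0.08 over all tested genes. In the wild type 0 of the 6 passed in limma (0.116% of all tested genes, 0.107% higher and 0.00827% lower), 2 had an unadjusted p under 0.05 and 0 passed with voom. With the mutants reduced to the 5 libraries named M, all 4 mutant calls were lost, with changes of the same sign. With the 4 named A8 the calls of Piezo1 and Trpc1 were lost. Both restrictions leave fewer mice. In the interaction, which tests whether the injury change differed between genotypes, 0 of the 6 passed, as did 0% of all tested genes, 0 had an unadjusted p under 0.05, and 0 passed with voom.

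**Figure D3:**
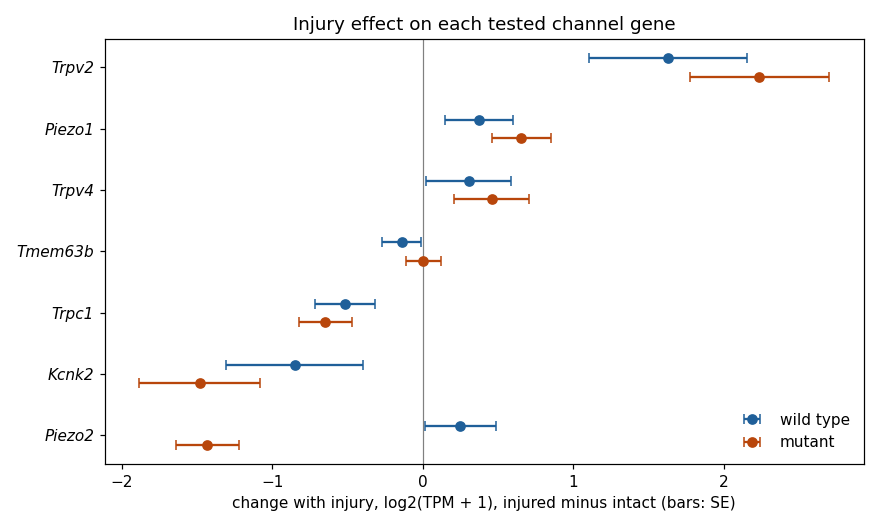
Change with injury in log2(TPM + 1), injured minus intact (horizontal axis), for the 7 channel genes that passed the filter on low values. Points are limma estimates from all 16 libraries, bars are standard errors, and colours give the genotype. Both genotypes lie on the same side of 0 for Trpv2, Piezo1, Trpv4, Trpc1 and Kcnk2. They lie on opposite sides for Piezo2, at 0.25 and -1.43, and for Tmem63b, at -0.14 and 0.0034.

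To show what lies in front of the 4 relatives that changed with injury in mutants, their promoters are printed from the RefSeq table (GRCm38.p6). Each is the 250 bases before a start site, 5′ to 3′ on the strand of the gene, and the site nearest the start of the gene in GENCODE was taken. The start site of Trpc1 lies 27 bases from that of GENCODE, and the other 3 coincide. The windows are chr11:62574236-62574485 (plus strand) for Trpv2, chr8:122551330-122551579 (minus strand) for Piezo1, chr1:189402274-189402523 (minus strand) for Kcnk2 and chr9:95750349-95750598 (minus strand) for Trpc1. Capitals mark matches, on either strand, to 5 motifs: GGAAA (bound by NFAT), GGAATG (TEAD), TGANTCA (AP-1), GGGCGG (GC box) and the NF-kB consensus.
Trpv2: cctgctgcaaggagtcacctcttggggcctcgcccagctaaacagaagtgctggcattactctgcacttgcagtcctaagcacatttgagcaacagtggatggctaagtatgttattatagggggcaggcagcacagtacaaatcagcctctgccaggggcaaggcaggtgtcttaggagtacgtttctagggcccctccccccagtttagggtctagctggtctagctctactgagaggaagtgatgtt
Piezo1: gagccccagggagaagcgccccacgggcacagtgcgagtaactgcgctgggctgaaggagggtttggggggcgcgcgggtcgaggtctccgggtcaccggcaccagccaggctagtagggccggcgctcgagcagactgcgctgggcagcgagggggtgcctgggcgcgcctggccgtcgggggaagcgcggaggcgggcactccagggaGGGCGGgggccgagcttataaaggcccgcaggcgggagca
Kcnk2: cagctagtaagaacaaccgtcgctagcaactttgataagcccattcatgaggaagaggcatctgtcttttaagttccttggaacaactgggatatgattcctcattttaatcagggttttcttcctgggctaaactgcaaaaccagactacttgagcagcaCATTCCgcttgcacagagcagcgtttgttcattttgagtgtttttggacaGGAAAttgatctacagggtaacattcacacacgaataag
Trpc1: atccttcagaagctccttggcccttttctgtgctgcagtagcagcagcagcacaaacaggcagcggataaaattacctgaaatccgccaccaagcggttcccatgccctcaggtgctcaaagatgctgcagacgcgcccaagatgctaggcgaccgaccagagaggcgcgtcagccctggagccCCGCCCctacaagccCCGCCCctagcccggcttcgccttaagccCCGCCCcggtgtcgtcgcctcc
The window of Kcnk2 held 1 TEAD match, at position -89, and 1 NFAT match, at position -39. Over all 32851 RefSeq windows of this length, 12.6% held a TEAD match and 55.6% an NFAT match. Trpc1 held 3 GC boxes and Piezo1 held 1, and 32.7% of all windows held at least 1. The window of Trpv2 held no match to any of the 5 motifs. AP-1 and NF-kB letters were in none of the 4 windows, against 6.7% and 3.9% of all windows. These are matches of letters and do not show binding.

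Trpv2 (ENSMUSG00000018507, chr11:62574486-62600515, plus strand, protein coding), a cation channel found on macrophages among other cells, rose most in mutants. It lay at 1.14, 1.33 and 1.04 TPM in intact wild-type discs and at 2.00, 4.05, 13.6 and 8.16 TPM in injured ones, without overlap, as was true of 15.6% of all tested genes (9.22% higher and 6.34% lower). In intact mutants it lay at 1.53, 1.61, 1.19 and 0.484 TPM and in injured mutants at 10.7, 19.7, 6.62, 10.5 and 4.05 TPM, again without overlap, as was true of 27.2% of all tested genes (12% higher and 15.3% lower). The rise was 2.24 ± 0.46 in mutants (SE, with limma adjusted p = 0.002404). For wild-type discs the change was 1.63 ± 0.53 (SE, with limma adjusted p = 0.1612). Without injured wild-type mouse 1 the latter was 2.02 ± 0.49 and passed (adjusted p by limma 0.04473). The intact libraries held only 7 to 23 implied reads of Trpv2, so its intact level is imprecise.

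Macrophage markers are given beside Trpv2. The summed level of 7 macrophage markers was 129 to 215 TPM in all intact discs. In injured mutants 1 to 5 it was 1867, 7406, 1165, 2552 and 737 TPM, and the mouse with the highest sum, mouse 2, also had the highest Trpv2. Of the 7 markers 6 rose in mutants, beside 13.1% of all tested genes. Adgre1, which encodes the macrophage surface protein F4/80, was among them and rose by 3.94 ± 0.87 (SE, with limma adjusted p = 0.002744). The marker that did not pass was Csf1r, at 0.44 ± 0.42 (SE, with limma adjusted p = 0.4103). Mouse 2 was also the highest of the injured mutants in the sums of neutrophil (934 TPM), endothelial (71.6 TPM) and smooth muscle markers (138 TPM). The part of macrophages or of any of these cells in the level of Trpv2 was not tested.

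Its relative Trpv4 (ENSMUSG00000014158, chr5:114622152-114658421, minus strand, protein coding) was far more abundant and did not pass in either genotype. It lay at 250.3, 272 and 191 TPM in intact and 323, 258, 272 and 315 TPM in injured wild-type discs. In intact mutants it lay at 244, 219.6, 402 and 291 TPM, and in injured mutants at 317, 236, 575, 448 and 454 TPM. The groups overlapped in both genotypes. The change was 0.31 ± 0.28 in the wild type (SE, with limma adjusted p = 0.5603) and 0.46 ± 0.25 in mutants (SE, with limma adjusted p = 0.1477). Among mutants the values split by library name. Libraries named A8 lay at 219.6 to 244 TPM intact and 236 to 317 TPM injured, and libraries named M at 291 to 402 TPM intact and 448 to 575 TPM injured. The injury change was 0.24 within A8 and 0.51 within M. Without injured mutant mouse 2 the mutant change was 0.64 ± 0.22 and passed (adjusted p by limma 0.03137). The difference between injured genotypes, 0.41 ± 0.25 (SE, with limma adjusted p = 0.3332), became -0.09 when only the A8 mutants were kept.

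Trpc1 (ENSMUSG00000032839, chr9:95705082-95750375, minus strand, protein coding), a subunit of calcium-permeable channels linked to stretch and to store refilling, was lower after injury. In intact wild-type discs it lay at 19.997, 15.9 and 21.8 TPM, and in injured ones at 17.2, 15.5, 9.45 and 11.3 TPM, where mice 3 and 4 were low. In mutants it lay at 19.6, 19.6, 14.5 and 17.2 TPM in intact and 12.7, 8.10, 11.2, 11.9 and 11 TPM in injured discs, without overlap, as was true of 27.2% of all tested genes (15.3% lower). It fell by 0.65 ± 0.18 in mutants (SE, with limma adjusted p = 0.01321). In the wild type it did not pass, at -0.52 ± 0.20 (SE, with limma adjusted p = 0.2300).

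Kcnk2 (ENSMUSG00000037624, chr1:189207930-189402273, minus strand, protein coding), which encodes the stretch-activated potassium channel TREK-1, had the largest fall of the relatives. In intact wild-type discs it lay at 18.4, 17.7 and 21 TPM, and in injured ones at 17.6, 14.3, 5.36 and 7.29 TPM. The wild-type groups did not overlap, as was true of 15.6% of all tested genes (6.34% lower), but mouse 1 lay just under the lowest intact mouse. In mutants it lay at 15.8, 13.9, 8.97 and 14 TPM in intact and 2.09, 5.53, 1.86, 9.15 and 4.19 TPM in injured discs, where mouse 4 reached into the intact range. It fell by 1.48 ± 0.40 in mutants (SE, with limma adjusted p = 0.008927), to a level 2.80-fold lower on the TPM + 1 scale. In the wild type the change was -0.85 ± 0.46 (SE, with limma adjusted p = 0.3177). Between injured genotypes the difference was -1.15 ± 0.40 (SE, with limma adjusted p = 0.1143). It passed only without injured wild-type mouse 3 (adjusted p by limma 0.03444) or without injured mutant mouse 4 (adjusted p by limma 0.04766). The gene overlaps A430027H14Rik, at 0 to 6.71 TPM, and 2900042K21Rik, at 0 to 5.88 TPM. Their changes with injury in mutants were -1.70 ± 0.51 and -0.56 ± 0.53 (SE). Notochordal markers were low in the same group. Their sum over 8 genes was 2588 to 5042 TPM in all intact discs and 51 to 2494 TPM in injured mutants, and mouse 4 had the highest sum of the injured mutants as well as the highest Kcnk2. Their part in the level of Kcnk2 was not tested.

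Tmem63b (ENSMUSG00000036026, chr17:45660171-45686905, minus strand, protein coding) did not pass in either genotype. It lay at 79.8, 84.9 and 57.7 TPM in intact and 74.4, 65.6, 64.8 and 60.9 TPM in injured wild-type discs. In mutants it lay at 71.7 to 79.6 TPM in intact and 63.4 to 87.6 TPM in injured discs. The changes with injury were -0.14 ± 0.13 in the wild type (SE, with limma adjusted p = 0.5892) and 0.0034 ± 0.11 in mutants (SE, with limma adjusted p = 0.9879). Trpc6 (ENSMUSG00000031997, chr9:8544142-8680741, plus strand, protein coding), a lipid-gated channel of smooth muscle and kidney, did not pass the filter on low values and was not tested. It was listed at 0 in 10 of 16 libraries, and its highest value was 1.43 TPM in injured wild-type mouse 3, from about 24 implied reads. That mouse also had the highest sum of 5 smooth muscle markers, at 542 TPM, against 28.6 to 201 TPM in the other 15 mice. Most of that sum was Rgs5 at 284 TPM and Acta2 at 227 TPM. Myh11 was at most 20.2 TPM in injured and 24.2 TPM in intact wild-type discs. The mouse was also highest in the endothelial sum (215 TPM, at most 71.6 TPM elsewhere), the adipocyte sum (62.8 TPM) and the annulus and tendon sum (8487 TPM). The part of any of these cells in Trpc6 was not tested.

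Read mouse by mouse, the injured wild type fell into the same order for several relatives. Mice 3 and 4 had higher Piezo1 and Trpv2 and lower Trpc1 and Kcnk2 than mice 1 and 2, which is the direction of the mutant injury change in all 4 genes. In Piezo2 the same mice had 31.6 and 35.0 TPM, above mice 1 and 2, which is opposite to its change in mutants. This is a description of 4 mice and was not tested. The share of all tested genes that split these mice in the same way was not counted. The values of Piezo2 are among those that chose it.

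Between genotypes in intact discs 0 of the 6 relatives passed in limma (0.0165% of all tested genes, 0.00413% higher and 0.0124% lower), 0 had an unadjusted p under 0.05 and 0 passed with voom. The largest difference was that of Kcnk2, -0.52 ± 0.46 (SE, with limma adjusted p = 1), whose groups did not overlap, at 15.8 TPM or less in mutants and 17.7 TPM or more in the wild type, as was true of 6.18% of all tested genes (3.41% lower). In injured discs 0 of the 6 passed (0.918% of all tested genes, 0.190% higher and 0.728% lower), 2 had an unadjusted p under 0.05 and 0 passed with voom. These 2 were Kcnk2 and Piezo1, the latter higher in mutants by 0.45 ± 0.20 (SE, with limma adjusted p = 0.1896).

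The other genes around these channels were examined by list. Besides the 8, 34 further channels that respond to stretch, swelling or touch were listed, of which 21 were tested. With injury in mutants 4 of the 21 rose and 6 fell, which is 47.6% beside the background of 30.8%, and the median change was -0.06 beside -0.08 over all genes. The risers were Lrrc8c and Lrrc8d, subunits of the volume-regulated anion channel, Panx1, which forms ATP-releasing channels, and Tmem120a. Lrrc8c rose by 0.94 ± 0.18 (SE, with limma adjusted p = 0.001971), with means of 27.1 ± 3.39 TPM in the 4 intact and 53.6 ± 12 TPM in the 5 injured mutants (SD). Among the fallers were Trpm4, Kcnma1, Pkd1, Pkd2 and Lrrc8b. Trpm4, a calcium-activated cation channel, fell by 1.15 ± 0.23 (SE, with limma adjusted p = 0.001931), with means of 40.6 ± 5.35 TPM in intact and 18.2 ± 5.52 TPM in injured mutants (SD). Kcnma1, the large-conductance potassium channel, fell by 0.93 ± 0.20 (SE, with limma adjusted p = 0.003234), with means of 348 ± 27.3 TPM in intact and 184 ± 33.3 TPM in injured mutants (SD). Gja1, the gap junction gene, and Pkd1 were the most abundant of the list, with means of 713 and 389 TPM over all libraries.

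Proteins reported to bind or tune PIEZO channels formed a list of 15, of which 14 were tested. With injury in mutants 4 rose and 2 fell (42.9% beside 30.8%), with a median change of 0.44. Atp2a2, which encodes the calcium pump SERCA2, rose by 0.77 ± 0.11 (SE, with limma adjusted p = 0.0007311), with means of 188 ± 21 TPM in the 4 intact and 322 ± 43.0 TPM in the 5 injured mutants (SD). Stom, a membrane scaffold protein, rose by 0.98 ± 0.27 (SE, with limma adjusted p = 0.009773), and Cdh1 and Tmem120a rose as well. Pkd2 fell by 0.65 ± 0.13 (SE, with limma adjusted p = 0.002697) and Gnas fell by 0.41 ± 0.13 (SE, with limma adjusted p = 0.02543). Pkd2 and Tmem120a stood in this list and in the channel list. Sdc4 and Itgb1 were its most abundant genes, at means of 1991 and 326 TPM.

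Downstream of calcium entry, the list of calcineurin, NFAT and calcium release genes had 21 tested members, of which 5 rose and 3 fell (38.1% beside 30.8%). Rcan1, an inhibitor of calcineurin that NFAT itself induces, rose by 2.18 ± 0.43 (SE, with limma adjusted p = 0.001575), with means of 46.4 ± 7.64 TPM in the 4 intact and 227 ± 100.1 TPM in the 5 injured mutants (SD). Camkk2, a calcium-dependent kinase, rose by 1.80 ± 0.30 (SE, with limma adjusted p = 0.0007637). Nfatc1 and Orai1 rose as well. Itpr3, a calcium release channel of the endoplasmic reticulum, fell by 1.2 ± 0.27 (SE, with limma adjusted p = 0.003172), and Stim1 and Itpr1 fell as well. The calmodulin gene Calm2 was the most abundant, at a mean of 726 TPM. The median change of this list was 0.04.

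For YAP and TAZ, transcription cofactors that respond to stiffness and spreading, 18 genes were tested, and 2 rose and 4 fell (33.3% beside 30.8%, median 0.12). Wwtr1, which encodes TAZ, rose by 0.60 ± 0.19 (SE, with limma adjusted p = 0.02267) and the kinase gene Stk4 by 0.81 ± 0.13 (SE, with limma adjusted p = 0.0009385). Yap1, Tead1, Axl and Ajuba fell, Ajuba by 0.85 ± 0.23 (SE, with limma adjusted p = 0.01084). The target genes Ccn2 and Ccn1, listed under their older names Ctgf and Cyr61, were the most abundant, at means of 1252 and 322 TPM, and neither passed.

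In the list for osmotic response 11 genes were tested, and 2 rose and 2 fell (36.4% beside 30.8%, median -0.12). Aqp1, a water channel, rose by 1.63 ± 0.47 (SE, with limma adjusted p = 0.01122) and Sgk1 by 1.04 ± 0.29 (SE, with limma adjusted p = 0.01009). Slc12a2, which carries sodium, potassium and chloride into the cell, fell by 2.16 ± 0.61 (SE, with limma adjusted p = 0.009885), with means of 455 ± 223 TPM in the 4 intact and 113 ± 76.8 TPM in the 5 injured mutants (SD). Slc6a6, the transporter of the osmolyte taurine, fell by 0.90 ± 0.23 (SE, with limma adjusted p = 0.008053). These were also the most abundant genes of the list, Slc6a6 at a mean of 580.3 TPM and Slc12a2 at 321 TPM.

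Of 20 focal adhesion genes, 7 rose and 1 fell with injury in mutants (8 of 20 beside 30.8% of all genes, median 0.29). The risers were Zyx, Flna, Flnc, Actn1, Actn4, Itga5 and Itgav, which link integrins to actin or are integrin chains. Flnc rose by 1.98 ± 0.38 (SE, with limma adjusted p = 0.001534), with means of 3.43 ± 0.443 TPM in the 4 intact and 16.6 ± 2.83 TPM in the 5 injured mutants (SD). Actn1 rose by 1.25 ± 0.31 (SE, with limma adjusted p = 0.00546) and Flna by 1.16 ± 0.31 (SE, with limma adjusted p = 0.007736). Tln2 fell by 0.80 ± 0.23 (SE, with limma adjusted p = 0.01251). Itgb1 and Flna were the most abundant, at means of 326 and 312 TPM.

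**Figure D4:**
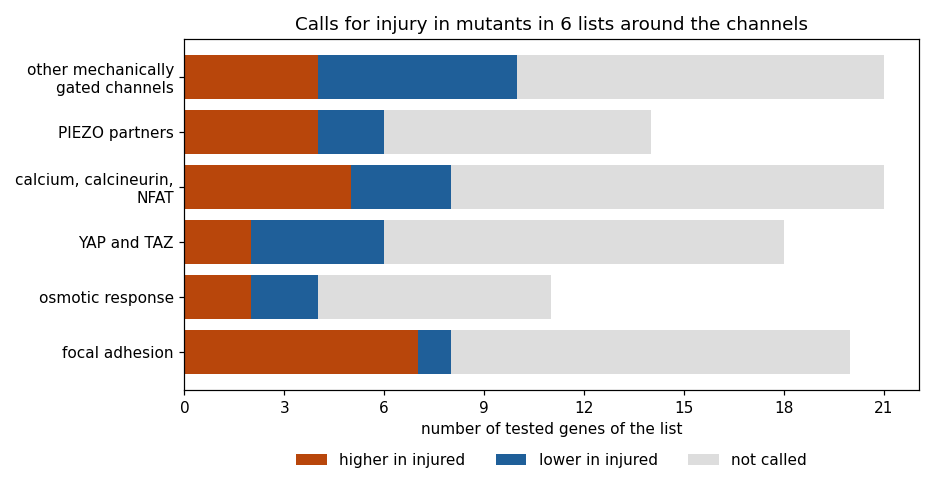
Number of tested genes (horizontal axis) in each of the 6 lists that were higher, lower or not called with injury in mutants by limma at an adjusted p under 0.05. Between 33.3% and 47.6% of a list was called, against 30.8% of all tested genes.

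Over the 6 lists together, 102 different genes were tested. With injury in mutants 23 rose and 17 fell, 39.2% in all. With injury in the wild type 0 passed in limma, 20 had an unadjusted p under 0.05 and 0 passed with voom. Between intact genotypes 0 passed, 3 had an unadjusted p under 0.05 and 0 passed with voom. In the interaction 0 passed, 4 had an unadjusted p under 0.05 and 0 passed with voom. None of the 40 calls in mutants changed sign with median-of-ratios scaling or quantile normalization.

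Finally, genes whose levels followed Piezo2 closely over the 16 libraries included Podn, N4bp2, Maob and Ssc5d, by Pearson correlation of log2(TPM + 1). Their correlations were 0.92 for Podn, 0.90 for N4bp2, 0.90 for Maob and 0.89 for Ssc5d. Of deviations from the group means, which leave out the pattern over groups, the correlations were 0.61, 0.62, 0.53 and 0.53 in the same order. They are descriptions over 16 mice in 4 groups, ranked out of all tested genes, and carry no test. Podn, which encodes the matrix proteoglycan podocan, lay at 26.7 ± 4.78 TPM in intact (SD, n = 3) and 24.7 ± 4.62 TPM in injured wild-type discs (SD, n = 4). It lay at 40.2 ± 7.75 TPM in intact (SD, n = 4) and 8.90 ± 4.86 TPM in injured mutants (SD, n = 5). Maob, which encodes a monoamine oxidase, had means of 9.97 ± 1.69 TPM in intact and 2.33 ± 1.09 TPM in injured mutants (SD). Among the relatives, the same correlation with Piezo2 was 0.60 for Kcnk2, 0.41 for Trpc1, 0.10 for Trpc6, -0.37 for Tmem63b, -0.44 for Trpv2, and -0.61 for both Piezo1 and Trpv4. Of deviations from the group means it was -0.05 for Kcnk2, -0.52 for Trpc1, 0.35 for Trpc6, -0.59 for Tmem63b, 0.67 for Trpv2, -0.12 for Piezo1 and -0.52 for Trpv4. The sign thus differed between these measures for Kcnk2, Trpc1 and Trpv2.

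**Figure D5:**
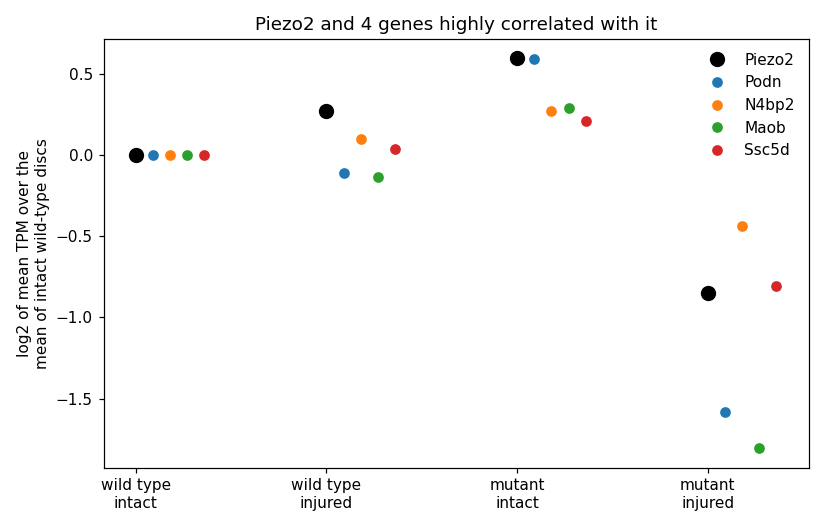
Mean TPM in each group (horizontal axis) over the mean in intact wild-type discs, as log2 (vertical axis), for Piezo2 and 4 of the genes most correlated with it over 16 libraries. In all 5 genes the highest point is that of intact mutants and the lowest that of injured mutants. The genes were chosen for their likeness to Piezo2 in these libraries, so this shared order is not a separate result.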

How the data were processed

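Discs of 16 mice were compared, each library being 1 mouse, with groups and mouse numbers taken from the titles. Per the labels' protocols, total RNA came from Trizol extraction and libraries were made with NEBNext Ultra II after depletion of ribosomal RNA, although the molecule field of the labels reads polyA RNA. The submitters' processing notes name bcl2fastq 2.20 and GRCm38. The aligner, the counter and its use of strand are not given in the sources used here. The authors deposited TPM values per gene, and each column sums to 1000000. Nothing says whether the mice were separate litters, so p-values measure the spread between these mice.

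A gene was tested where 3 or more libraries reached 1 TPM, which left 24188 of 49315. The test was limma 3.58.1 in R 4.3.3 on log2(TPM + 1), all 16 libraries in 1 fit with a mean per group and a mean-variance trend, with Benjamini-Hochberg adjustment over all tested genes. Errors of changes are ordinary standard errors. The code was tested on simulated data. Reads were implied from TPM and GENCODE M21 union exon lengths (99.5% of genes matched). Of low values (under 20 reads) 94.0% to 95.0% came out within 0.05 of a whole number, so these reads are approximate.

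The members and lists were chosen with earlier results of these data known. Named genes were the 8 members, the 2 most abundant genes of each list, up to 3 called genes of each list in each direction with the largest change, and the 5 genes of at least 1 TPM on average most correlated with Piezo2; other called list genes are named beside a count. Some genes that this rule names are not reported here. Alternatives were a pseudocount of 0.1, no filter, a mean of at least 5 TPM, median-of-ratios scaling, quantile normalization, fits of the compared groups alone, the mouse number as a block, mutants of 1 library name and leaving out each mouse. The voom fit on implied reads was added after seeing the data. Piezo2 promoter and protein sequences are not used here.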

Additional observations from a re-analysis of the deposited data

How the results depend on the processing

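Depth limits Trpv2 in intact discs and Trpc6 throughout, and groups of 3 to 5 mice limit the rest. The wild-type injury count, 28 genes, was 64 with a pseudocount of 0.1, 11 without a filter, 17 with median-of-ratios scaling, 4 with only the groups compared and 4 with voom. It ranged from 2 (without intact wild-type mouse 1) to 452 (without injured wild-type mouse 1). The mutant injury count, 7438, was 725 with only M mutants and 3583 with only A8 mutants, and ranged from 5332 to 7985 when a mouse was left out. The intact genotype count, 4, was 2 with M mutants and 8 with A8 mutants, and ranged from 1 to 7 without a mouse. The injured genotype count, 222, was 86 without a filter, 93 with quantile normalization, 5 with only the groups compared, 2 with A8 mutants and 558 with voom. It ranged from 7 (without injured wild-type mouse 2) to 2253 (without injured wild-type mouse 3). The share of rises in it was 20.7%, and 47.5% with median-of-ratios scaling. The interaction count, 0, ranged to 15 when a mouse was left out.

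Same-numbered mice are different animals, and their deviations had a median correlation of -0.055 over 21 pairs, with 2 of 16 libraries closest to their own number. With the replicate block the wild-type injury count was 5, the intact genotype count 2, the injured genotype count 11, the mutant injury count 6191 and the interaction count 0, and the change of Tmem63b in mutants was -0.0528 and that of Trpv2 between intact genotypes 0.0086. The block changed no call of a channel gene.

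Signs turned only in changes that had not passed. With quantile normalization Tmem63b in mutants was -0.0015, Trpv2 between intact genotypes 0.0683 and the Trpc1 interaction 0.0111, and with M mutants the last was 0.0738. With A8 mutants Tmem63b with injury was -0.1443 and its interaction -0.0032, intact genotype differences were 0.249 for Trpv2, -0.0217 for Trpv4 and 0.0391 for Trpc1, and Trpv4 was -0.0872 between injured genotypes and -0.0655 in the interaction. With voom Tmem63b in mutants was -0.0333. Without 1 mouse, intact genotype differences ranged from -0.1014 to 0.1707 for Trpv2, -0.0114 to 0.3499 for Piezo1 and -0.1388 to 0.1352 for Tmem63b, and Tmem63b in mutants from -0.0528 to 0.0622. The cause was not tested. Of 762 values of the 6 tested relatives under an alternative, 727 kept their direction and side of the threshold.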
